A study of Rattus norvegicus with 15 samples.

Results

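The p53 pro-death and death receptor genes were followed in cultured rat brain microvascular endothelial cells (BMECs) after x-ray exposure. The group was set by name as 10 genes, namely Bax, Bbc3, Pmaip1, Aen, Fas, Tnfrsf10b, Eda2r, Tp53inp1, Perp and Phlda3. For each gene, the expression of all transcripts that carried its name was summed, together with unnamed transcripts assembled in a locus that held no other gene name. Of these 10 genes, 8 had a row among the 37367 genes of the table, while Bbc3 and Tnfrsf10b were not analysed here. The table held 28906 gene names, and an assembled locus without any name was counted as a gene of its own. Shares of all genes therefore include such unnamed loci. Expression was given as FPKM, fragments scaled by transcript length and by the reads of the library, so levels of different genes are compared per length. Genes averaging 0.5 FPKM or more across the 15 libraries were tested, and 7 of the 10 were among them. Perp, which encodes a membrane protein of cell junctions, was listed at 0 in every library.

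DNA damage stabilizes the transcription factor p53, which switches on genes of cell cycle arrest, DNA repair and cell death. On the mitochondrial route to death, Bax forms pores in the outer mitochondrial membrane, and Bbc3 (PUMA) and Pmaip1 (NOXA) are small BH3-only proteins that bind and block the protective members of the BCL2 family. On the death receptor route, ligand binding to Fas or Tnfrsf10b at the cell surface recruits the adaptor Fadd and the protease Casp8, whereas Eda2r is a receptor of the same superfamily that binds ectodysplasin A2. Aen is a nuclease, Tp53inp1 is a stress-induced partner of p53, and Phlda3 is a protein with a pleckstrin homology domain that competes with the survival kinase AKT for membrane lipids.

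The 15 libraries came from 5 groups of primary BMEC cultures, with 3 biological replicates in each. All cultures were grown from cerebral microvessels of Sprague-Dawley rats (labelled Spraque-Dawley), littermates of both sexes aged 2 to 3 weeks. One group was left unexposed and is labelled as cultured for 12 h, and the other 4 groups were collected 12 h or 24 h after x-rays of 5 Gy or 20 Gy were delivered. Unexposed cells went through every other step of the procedure. The sources used here do not tie each replicate to its own animals, so p-values measure the spread between these cultures. All comparisons used the 12 h controls, and an unexposed group of 24 h is not analysed here. At 24 h, hours since exposure and hours in culture therefore cannot be told apart. In bulk RNA, fewer cells of a type and less RNA per cell cannot be told apart either.

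From the steps between low FPKM values, the depth was estimated at 5.44 to 7.49 gigabases per library, so 1 FPKM stands for about as many reads over each base of a transcript. The median depth over the 15 libraries ranged from 48.9 reads over each base of Aen to 1516 of Phlda3. The labelled cell type was checked against markers. Of 10 endothelial marker genes, 9 were found, and Pecam1 had no row by that name. Of the 9, 7 had a mean FPKM below 0.5, with Cldn5, Vwf and Cdh5 at or near 0. The other 2 were Flt1, at 1.16 to 5.48 FPKM, and Kdr, at 0.288 to 0.866. The summed FPKM of the 9 lay between 2.44 and 6.63 in all libraries. Apart from Flt1, the endothelial markers found were thus low or absent, and the cultures are called BMECs only because they are labelled so. The 6 fibroblast markers summed to 1798 to 1987 FPKM in the control libraries, 1273 to 1547 at 12 h and 272 to 326 at 24 h. At 24 h, 5 of the 6 were called lower after both doses, beside 20.8% of all genes after 5 Gy and 23.3% after 20 Gy. The fall was largest in Col1a1, Col1a2 and Col3a1, from means of 516, 414 and 535 FPKM in the control group to 22.4 to 36.6. Dcn and Lum averaged 195 and 207 FPKM in the control group and 62.7 to 82.8 at 24 h. Pdgfra was not called and averaged 52.1 in the control group and 60.8 and 51.6 at 24 h after 5 Gy and 20 Gy. Pericyte and smooth muscle markers summed to 90.9 to 99.3 FPKM in control libraries, 74.5 to 91.2 at 12 h and 39.4 to 64.9 at 24 h. Most of this sum was Pdgfrb, Cspg4 and Tagln, while 4 of the 7 markers had a mean FPKM below 0.5. Kcnj8 and Abcc9 were at 0 in all libraries, Rgs5 at 0.227 or less and Acta2 at 0.576 or less. Of the 3 markers that were tested, 2 (Pdgfrb and Cspg4) were called lower at 24 h after both doses, beside the same shares of all genes. Astrocyte markers summed to 9.80 to 12.4 FPKM in control libraries and 18.7 to 32.0 in exposed ones, and most of this sum was Aldh1l1. Aldh1l1 averaged 9.52 FPKM in the control group and 20.8 to 24.1 in the exposed groups. It was called higher in all 4 comparisons (log2 fold changes of 1.25, 1.25, 1.05 and 1.20), as were 1.48% of all genes. Aqp4 was at 0 in all libraries and Gfap at 0.182 or less. Slc1a3 averaged 1.79 in the control group and 0.918 to 2.36 in the exposed groups and was not called. Neuron markers summed to 2.91 to 12.1 FPKM over all libraries, and those of microglia, oligodendrocytes and blood stayed below these sums. Most of the neuron sum was Syt1 (2.78 to 11.9 FPKM), with Rbfox3 at 0 in all libraries and Snap25 at 0.348 or less. The 6 heat shock genes that were tested were all called higher at 24 h after both doses, beside 20.5% and 17% of all genes. After 20 Gy the largest log2 fold changes were those of Hspa1b (6.87 after 5 Gy and 8.76 after 20 Gy), Hsph1 (4.84 and 6.19), Hspb1 (1.24 and 3.69) and Bag3 (1.96 and 3.66), an order that did not hold after 5 Gy. The summed FPKM of the heat shock list was 214 to 238 in control libraries, 185 to 228 at 12 h, 1904 to 2626 at 24 h after 5 Gy and 7321 to 8789 at 24 h after 20 Gy. The part of these shifts in the changes of the p53 target genes was not tested.

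p53 binds DNA through pairs of half-sites of 10 bases. The 250 bases before the transcription start of 6 of the 10 genes (Pmaip1, Aen, Fas, Eda2r, Perp and Phlda3) were read from RefSeq on the build GRCr8, and both strands were searched for the p53 half-site consensus. The promoters of Aen, Eda2r and Fas are shown because they hold the 3 outcomes of that search, an exact match, matches with a mismatch and none. Capitals mark windows that match the half-site consensus with at most 1 mismatch outside its 4 core bases.
Aen, chr1:142224283-142224532, forward strand: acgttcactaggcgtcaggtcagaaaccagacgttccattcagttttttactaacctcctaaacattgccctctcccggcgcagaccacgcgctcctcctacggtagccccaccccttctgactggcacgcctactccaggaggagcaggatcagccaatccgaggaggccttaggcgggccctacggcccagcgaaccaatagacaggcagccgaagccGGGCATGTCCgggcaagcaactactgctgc
Eda2r, chrX:66280621-66280870, reverse strand: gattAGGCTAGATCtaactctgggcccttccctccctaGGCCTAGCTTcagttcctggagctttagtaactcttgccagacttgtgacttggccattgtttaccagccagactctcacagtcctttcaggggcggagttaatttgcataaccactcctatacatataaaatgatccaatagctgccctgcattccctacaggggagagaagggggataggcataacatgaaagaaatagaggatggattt
Fas, chr1:241211905-241212154, forward strand: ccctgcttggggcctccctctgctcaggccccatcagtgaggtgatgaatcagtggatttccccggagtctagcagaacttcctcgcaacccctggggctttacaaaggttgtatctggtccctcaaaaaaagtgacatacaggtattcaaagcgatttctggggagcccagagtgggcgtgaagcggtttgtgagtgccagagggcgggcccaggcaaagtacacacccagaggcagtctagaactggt
The Aen window holds an exact half-site, GGGCATGTCC, from position -30 to position -21 before the start. An exact half-site was found in 6.64% of 33469 promoters of the same length, and Aen was the single gene of the 6 with one. With at most 1 mismatch outside the core, 32.8% of all promoters matched. By that measure the Eda2r window held 2 matches, starting at -246 and -212, the Pmaip1 window held 1 at -170, and none was found in the windows of Fas, Perp and Phlda3. A match describes letters and does not show binding, and a lack of one says only that these letters are not in this window.

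Most of the measured pro-death genes were higher in exposed than in unexposed cultures, in every comparison with the control group. At 12 h after 5 Gy, 5 of the 7 tested genes passed the threshold, a fold change of at least 1.5 with an adjusted p under 0.05 (limma on log2(FPKM + 1), Benjamini-Hochberg over 17895 genes), and all 5 were higher, beside 4.98% of all genes tested that were called higher. At 12 h after 20 Gy, 6 of 7 were called higher beside 4.9% of all genes. At 24 h, 6 of 7 were called higher after 5 Gy beside 20.5% of all genes, and 5 of 7 after 20 Gy beside 17%. Bax, Fas, Eda2r, Tp53inp1 and Phlda3 were called higher in all 4 comparisons, as were 264 of the 17895 genes (1.48%). The median log2 fold change of the 7 genes was 1.41 after 5 Gy and 1.75 after 20 Gy at 12 h, and 2.64 and 1.76 respectively at 24 h, beside medians over all genes of 0.03, 0.01, -0.05 and -0.14. The value of 1.76 is that of the named Aen row, and with both rows of the Aen span described further on, a sum chosen after its values were seen, the median there was 2.54 and 6 of 7 genes were called. The 4 comparisons share the same 3 control libraries.

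**Figure D1:**
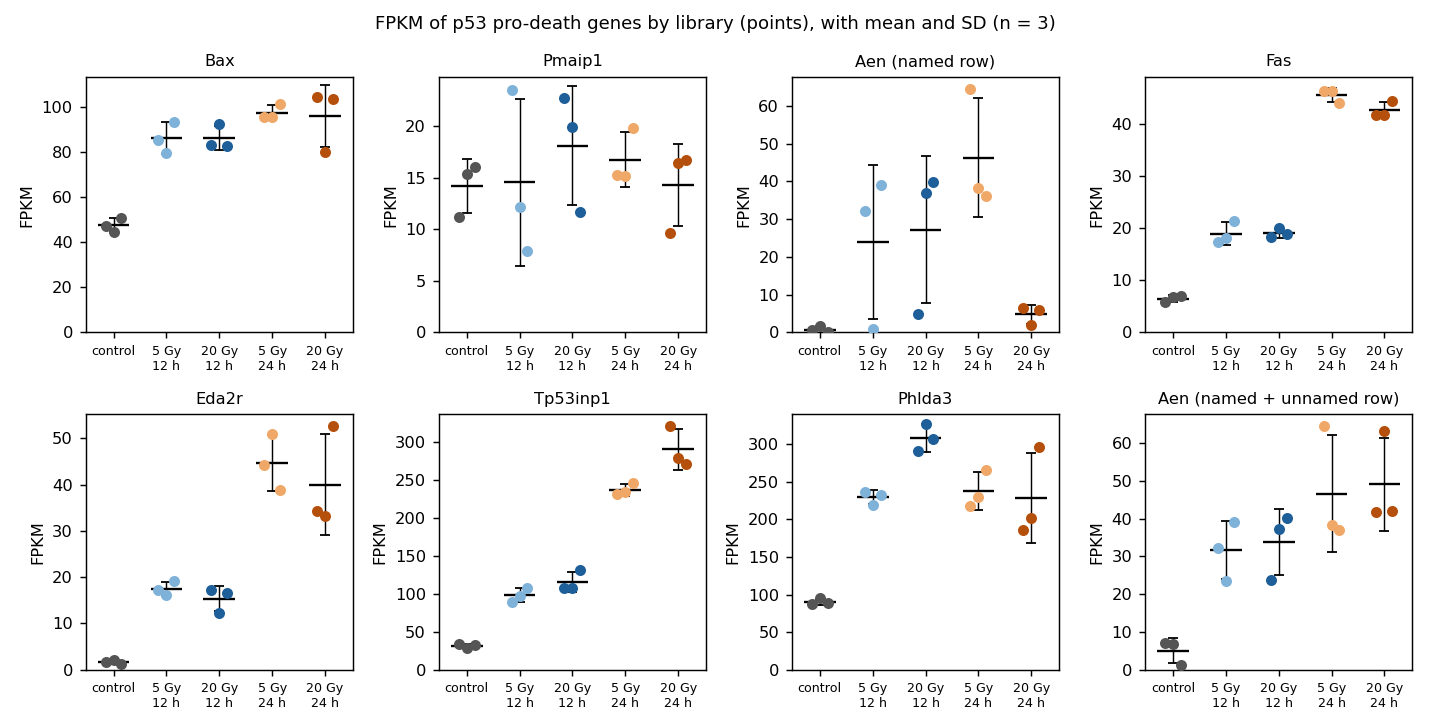
FPKM (vertical axes) of 7 p53 pro-death genes and of the 2 rows of the Aen span summed, for control cells and for cells collected 12 h or 24 h after 5 Gy or 20 Gy, with 1 point per library, the mean as a bar and the SD as whiskers (n = 3). Every exposed library lies above every control library for Bax, Fas, Eda2r, Tp53inp1 and Phlda3, whereas the groups overlap for Pmaip1.

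Bax, the pore-forming effector of the mitochondrial route, lies on chromosome 1 from 101451802 to 101457207 on the reverse strand (Rnor_6.0). Its FPKM in the 3 control libraries was 47.0, 44.7 and 50.7. At 12 h it was 85.2, 79.5 and 93.5 after 5 Gy and 83.4, 92.4 and 82.7 after 20 Gy. The 24 h libraries held 95.7, 95.5 and 101 after 5 Gy and 104, 80.0 and 104 after 20 Gy. The lowest exposed library, 79.5, was thus well above the highest control library, 50.7, and the 4 exposed groups lay close together. Against the control group, Bax had a log2 fold change of 0.84 (95% interval 0.62 to 1.07, limma adjusted p = 0.00013) at 12 h after 5 Gy and 0.85 (adjusted p = 0.00016) after 20 Gy. At 24 h it was 1.02 (adjusted p = 2.6e-06) after 5 Gy and 0.99 (adjusted p = 3.7e-06) after 20 Gy. This was the smallest rise among the 5 genes called in all 4 comparisons, and it nearly doubled the level.

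The Bax sum is made of 3 transcripts. The annotated transcript with 6 exons (831 bases) averaged 25.9 FPKM in the control group, 46.3 after 5 Gy and 46.0 after 20 Gy at 12 h, and 54.4 and 62.9 respectively at 24 h. It was called higher in all 4 comparisons, with log2 fold changes of 0.82, 0.81, 1.05 and 1.24. The annotated transcript with 5 exons (1196 bases) averaged 18.6 FPKM in the control group, 32.3 and 33.2 at 12 h and 28.1 and 19.6 at 24 h. It was called in none of the 4, with log2 fold changes of 0.79 and 0.84 at 12 h, close to those of the transcript with 6 exons, and of 0.59 and 0.06 at 24 h. The smallest of its limma adjusted p-values was 0.075. An unnamed transcript of 600 bases averaged 15.1 and 13.5 FPKM at 24 h and was called there after both doses. Its control libraries held 7.53, 0.784 and 0.665 FPKM, so 1 library carries the control mean of 2.99. Of the 41932 transcripts tested singly, 4.33%, 3.7%, 24.1% and 24.2% were called in either direction in the same 4 comparisons.

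Pmaip1 stood apart from the other tested genes. Its FPKM was 11.2, 15.3 and 16.0 in the control libraries. At 12 h it was 23.5, 12.2 and 7.90 after 5 Gy and 22.7, 19.9 and 11.6 after 20 Gy. The 24 h values were 15.2, 15.2 and 19.8 after 5 Gy and 9.68, 16.5 and 16.8 after 20 Gy. Each exposed group overlapped the range of the controls, and the spread within the 12 h groups was wide, with an SD of 8.08 at a mean of 14.5 after 5 Gy. The log2 fold change was -0.08 (95% interval -0.82 to 0.66) and 0.30 (-0.44 to 1.03) at 12 h after 5 Gy and 20 Gy. At 24 h it was 0.23 (-0.51 to 0.96) and -0.01 (-0.75 to 0.73). None was called by limma, no unadjusted p was under 0.05, and the smallest adjusted p was 0.59. The intervals still allow a rise of up to 1.03 on the log2 scale. The sum holds the annotated transcript with 3 exons and an unnamed transcript with 2 exons that starts upstream, on chromosome 18, and neither was called on its own. An unnamed transcript of the other strand or of no stated strand overlaps the locus with a mean of 12.98 FPKM.

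Aen, the nuclease of the group, gave 0.514, 1.65 and 0.0124 FPKM in the control libraries from its single named transcript. At 12 h it gave 32.2, 0.847 and 39.0 after 5 Gy and 4.88, 37.0 and 39.9 after 20 Gy. By 24 h the row gave 64.4, 38.3 and 36.2 after 5 Gy but 6.53, 1.99 and 5.94 after 20 Gy. By this row, 1 of the 12 exposed libraries, the second of 12 h after 5 Gy, lay within the control range, and the 24 h libraries after 20 Gy lay below all those after 5 Gy. The log2 fold change was called at 12 h after 20 Gy (3.71, limma adjusted p = 0.027) and at 24 h after 5 Gy (4.84, adjusted p = 0.0013), but not at 12 h after 5 Gy (3.08, adjusted p = 0.054) or at 24 h after 20 Gy (1.76, adjusted p = 0.16). Its standard error was 1.03, compared with 0.09 to 0.34 for the other tested genes. These calls moved with single libraries and with the fit. With a pseudocount of 0.1, Aen was called at 12 h after 5 Gy (4.43, limma adjusted p = 0.040). At 24 h after 20 Gy it was called in a fit of only the groups compared (adjusted p = 0.018) and without the 12 h libraries (adjusted p = 0.0090), and without the 24 h libraries the call at 12 h after 20 Gy was lost (adjusted p = 0.077). The call at 12 h after 20 Gy was lost without replicate 2 or 3 of that group (log2 fold change 3.28 and 3.23, limma adjusted p = 0.093 and 0.10) and without replicate 1 or 3 of the control group (3.67 and 3.38, adjusted p = 0.063 and 0.092). Without replicate 2 of 12 h after 5 Gy, Aen was called at 12 h after 5 Gy (4.51, adjusted p = 0.0021) and at 24 h after 20 Gy (1.76, adjusted p = 0.039), and without replicate 1 of 12 h after 20 Gy it was called at 12 h after 5 Gy (3.08, adjusted p = 0.038).

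Part of the Aen signal lay on another row of the table. Aen runs on chromosome 1 from 140584380 to 140593745 on the forward strand, in a locus that also holds Isg20, so unnamed transcripts of this locus were left out of its sum. Among them was an unnamed transcript with the same start, end and 4 exons, 2374 bases long beside 2373 for the named one. It held 22.8 FPKM in the second library of 12 h after 5 Gy, 18.9 in the first of 12 h after 20 Gy, and 35.2, 61.4 and 36.2 in the libraries of 24 h after 20 Gy, the 5 exposed libraries in which the named row was low. In the other 7 exposed libraries it was at most 0.752.

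With both rows summed, the unexposed cultures averaged 5.07 ± 3.26 FPKM of Aen (SD, n = 3). After 5 Gy and 20 Gy the sum averaged 31.7 ± 7.75 and 33.7 ± 8.72 at 12 h, and 46.6 ± 15.5 and 49.1 ± 12.3 at 24 h (n = 3 each). No exposed library, the lowest at 23.6, then overlapped the controls, the highest at 7.03. This sum had a log2 fold change of 2.61 (limma adjusted p = 0.00099) and 2.69 (adjusted p = 0.00098) at 12 h, and 3.13 (adjusted p = 3.4e-05) and 3.22 (adjusted p = 2.8e-05) at 24 h, so it was called in all 4 comparisons. This sum was chosen after the values were seen. A further 3 unnamed transcripts span both Aen and Isg20, and their summed FPKM averaged 8.22 in the control group, 14.8 and 18.8 at 12 h, and 68.9 and 95.5 at 24 h. They cannot be divided between the pair of genes from these values.

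**Figure D2:**
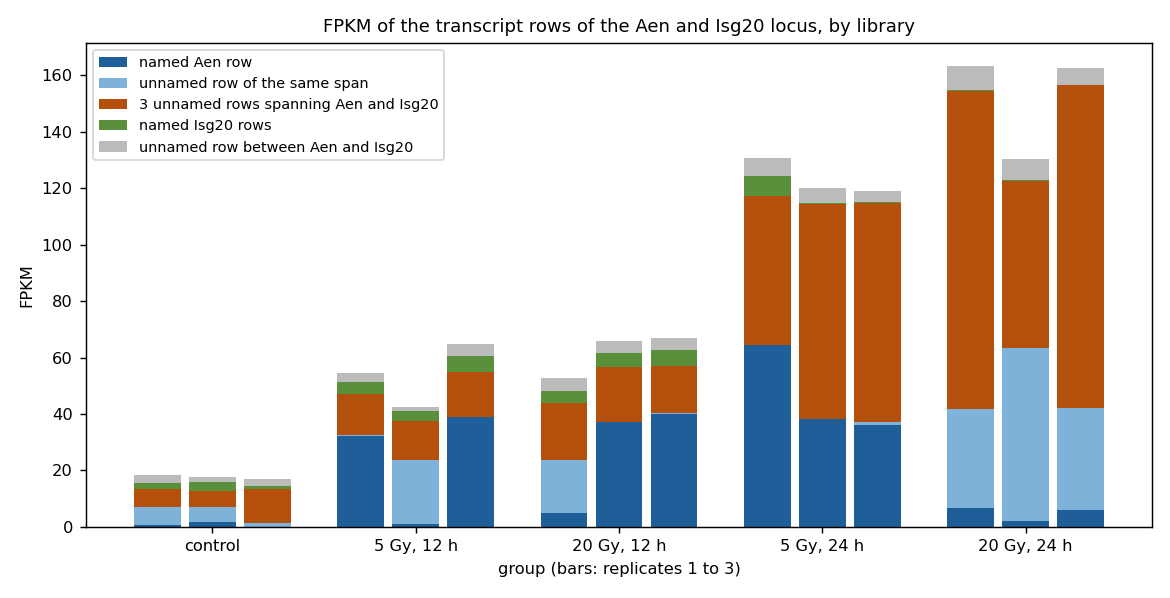
FPKM (vertical axis) of the transcripts of the Aen and Isg20 locus, stacked by kind, with 1 bar for each of the 3 replicates of each group. The named Aen row is low in all libraries of 24 h after 20 Gy, where the unnamed row of the same span holds 35.2 to 61.4 FPKM.

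Fas, the receptor of the Fas ligand, is a transmembrane protein with a death domain. It was at 5.79, 6.72 and 6.98 FPKM in the control libraries. At 12 h the libraries held 17.3, 18.1 and 21.4 after 5 Gy and 18.2, 20.0 and 18.8 after 20 Gy. At 24 h they held 46.4, 46.3 and 44.0 after 5 Gy and 41.8, 41.8 and 44.4 after 20 Gy. The values formed 3 levels, one for the control group, one for 12 h and one for 24 h, with no overlap between them. At 12 h Fas was 2.66-fold and 2.67-fold higher than in the control group after 5 Gy and 20 Gy on the FPKM + 1 scale, and at 24 h 6.22-fold and 5.83-fold higher, and all 4 differences were called. The annotated transcript with 9 exons, 2553 bases long, held 42.2 and 40.4 of the mean FPKM at 24 h.

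Eda2r was nearly silent in unexposed cells, with 1.73, 2.15 and 1.14 FPKM. At 12 h it held 17.2, 16.2 and 19.1 after 5 Gy and 17.3, 12.3 and 16.5 after 20 Gy. The 24 h libraries held 44.3, 50.9 and 38.8 after 5 Gy and 34.2, 33.2 and 52.6 after 20 Gy. The lowest exposed library, 12.3, was thus several times the highest control, and the 12 h and 24 h libraries did not overlap. Its log2 fold change was 2.80 (95% interval 2.39 to 3.22, limma adjusted p = 1.9e-06) and 2.62 (2.20 to 3.03, adjusted p = 2.6e-06) at 12 h after 5 Gy and 20 Gy. At 24 h it was 4.10 (3.69 to 4.52, adjusted p = 5.5e-09) and 3.92 (3.51 to 4.34, adjusted p = 7.0e-09). Among the 17895 genes, this rise ranked 11 and 15 from the top at 12 h and 24 and 27 at 24 h, where rank 1 is the largest rise.

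The Eda2r sum covers 18 transcripts on the X chromosome from 66548007 to 66602506, reverse strand, of which 16 are unnamed. The annotated transcript with 7 exons, 1137 bases long, averaged 0.144 FPKM in the control group, 11.3 and 4.18 at 12 h, and 31.1 and 29.6 at 24 h. With the named rows alone, the call at 12 h after 20 Gy was lost, at a log2 fold change of 1.71 (limma adjusted p = 0.12).

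**Figure D3:**
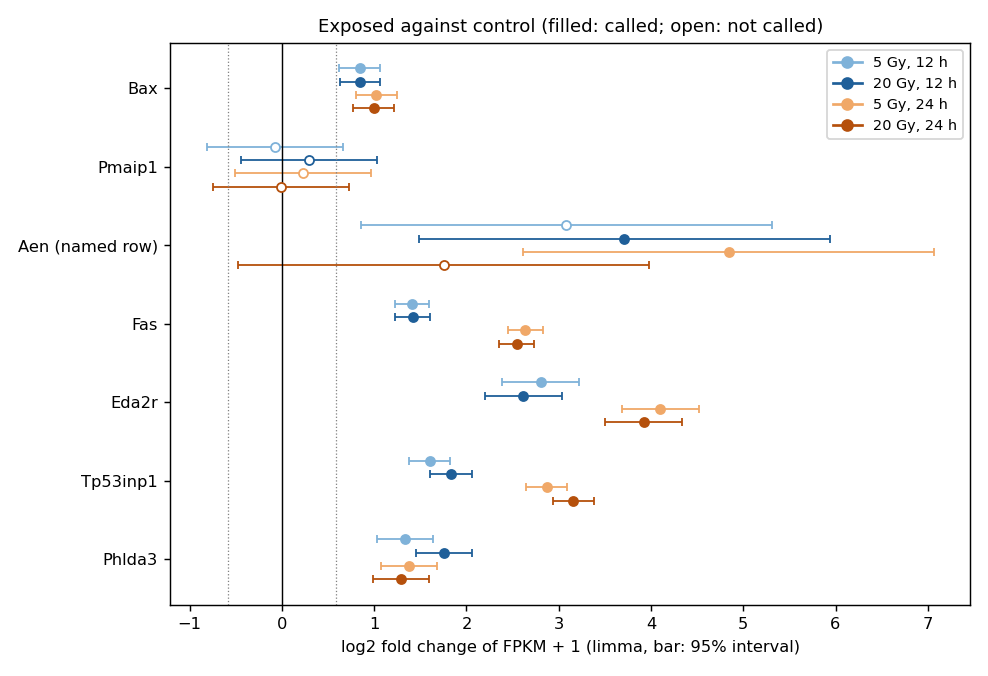
Log2 fold change of FPKM + 1 against the control group (horizontal axis) for the 7 tested genes, with bars for the 95% interval, filled points where the call was made and open points where it was not. Dotted lines mark a fold change of 1.5 in either direction. Eda2r reaches 4.10 at 24 h after 5 Gy and Bax stays between 0.84 and 1.02, while the 4 intervals of Pmaip1 include 0.

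Tp53inp1, which takes part in p53-dependent stress responses and in autophagy, was at 34.0, 28.8 and 32.5 FPKM in the control libraries. At 12 h it was at 89.5, 97.3 and 108 after 5 Gy and at 108, 107 and 132 after 20 Gy. At 24 h it was at 232, 234 and 247 after 5 Gy and at 322, 280 and 272 after 20 Gy. The group means were ordered control, 5 Gy and 20 Gy at 12 h, 5 Gy and 20 Gy at 24 h, and the libraries overlapped only between the doses at 12 h. Against the controls, the log2 fold change was 1.60 (95% interval 1.38 to 1.82, limma adjusted p = 1.2e-06) and 1.83 (1.61 to 2.05, adjusted p = 2.5e-07) at 12 h, and 2.87 (2.64 to 3.09, adjusted p = 5.3e-10) and 3.16 (2.93 to 3.38, adjusted p = 2.5e-10) at 24 h after 5 Gy and 20 Gy. Both of its transcripts, the annotated one with 3 exons and an unnamed one with 4 exons and 4505 bases on chromosome 5 from 24410863 to 24420337 (forward strand), were called higher in all 4 comparisons. The unnamed transcript held the larger part, 22.4 of the mean 31.8 FPKM in the control group and 173 of 291 at 24 h after 20 Gy.

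Phlda3 had the highest level of the tested genes in unexposed cells, at 87.6, 95.1 and 89.4 FPKM. At 12 h it held 237, 219 and 233 after 5 Gy and 290.5, 328 and 307 after 20 Gy. Later, at 24 h, it held 217, 230.0 and 266 after 5 Gy and 186, 202 and 296 after 20 Gy. All exposed libraries lay above the controls, and the highest group was 12 h after 20 Gy rather than a 24 h group. The log2 fold change was 1.33 (95% interval 1.03 to 1.64, limma adjusted p = 4.5e-05) and 1.75 (1.45 to 2.06, adjusted p = 5.4e-06) at 12 h, and 1.38 (1.07 to 1.68, adjusted p = 3.1e-06) and 1.29 (0.99 to 1.60, adjusted p = 5.7e-06) at 24 h after 5 Gy and 20 Gy. Phlda3 has a single transcript of 2 exons, on chromosome 13 from 52588917 to 52592001 on the forward strand. An unnamed transcript of the other strand or of no stated strand overlaps Phlda3 (mean 0.889 FPKM), as is the case for Tp53inp1 (3.48 FPKM) and Aen (1.57 FPKM).

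With the 12 exposed libraries set against the 3 control libraries, 6 of the 7 genes were called higher, beside 10.1% of all genes. For Bax, Fas, Eda2r, Tp53inp1 and Phlda3, all 12 exposed libraries lay above the 3 controls, a pattern found in 6.99% of all genes tested, and the two-sided exact permutation p was 0.0022, the smallest that 455 arrangements can give. For Aen by its named row the exact permutation p was 0.0044, and for Pmaip1 it was 0.69. A comparison of 3 libraries with 3 cannot give an exact permutation p below 0.1.

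From 12 h to 24 h, Fas, Eda2r and Tp53inp1 rose further after both doses, 3 of 7 genes beside 17.1% of all genes called higher after 5 Gy and 14.1% after 20 Gy. The log2 difference between 24 h and 12 h after 5 Gy was 1.23 for Fas (limma adjusted p = 1.8e-07), 1.30 for Eda2r (adjusted p = 9.3e-05) and 1.27 for Tp53inp1 (adjusted p = 6.1e-07). After 20 Gy it was 1.13 (adjusted p = 3.8e-07), 1.31 (adjusted p = 9.3e-05) and 1.33 (adjusted p = 4.2e-07). With the named rows alone the Eda2r call after 5 Gy was lost (1.41, adjusted p = 0.096). For these genes all 24 h libraries lay above all 12 h libraries of the same dose, as they did for 28.7% of all genes after 5 Gy and 23.1% after 20 Gy. Bax differed by 0.18 (95% interval -0.04 to 0.40) after 5 Gy and 0.15 (-0.08 to 0.37) after 20 Gy and was not called. Phlda3 differed by 0.04 (-0.26 to 0.35) after 5 Gy and by -0.46 (-0.77 to -0.16, adjusted p = 0.014) after 20 Gy, which missed the fold limit of 1.5 but passed it without replicate 3 of 24 h after 20 Gy (-0.66, adjusted p = 0.00011). Pmaip1 differed by 0.31 (-0.43 to 1.04) and -0.31 (-1.04 to 0.43). The named Aen row differed by 1.76 and -1.96 with neither called, although the second was called without replicate 2 of 12 h after 5 Gy (-1.96, adjusted p = 0.026) or replicate 1 of 12 h after 20 Gy (-2.87, adjusted p = 0.037), and both rows of the Aen span together by 0.52 and 0.53, not called either.

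Between 20 Gy and 5 Gy, none of the 7 genes was called by limma at 12 h, where 0.123% of all genes were called in either direction, or at 24 h, where 2.42% were. At an unadjusted p under 0.05, for which no share of all genes was counted, there were 2 genes at each time. At 12 h these were Tp53inp1, with a log2 difference of 0.23 (95% interval 0.01 to 0.45, limma adjusted p = 0.69), and Phlda3, with 0.42 (0.12 to 0.73, adjusted p = 0.47), whose 3 libraries after 20 Gy all lay above those after 5 Gy, as for 6.39% of all genes. At 24 h they were Tp53inp1, with 0.29 (0.07 to 0.51, adjusted p = 0.14) and all libraries after 20 Gy above those after 5 Gy, as for 6.78% of all genes, and the named Aen row, with -3.09 (-5.31 to -0.86, adjusted p = 0.11, or 0.027 without replicate 2 of 12 h after 5 Gy). Over both times, Tp53inp1 had a difference of 0.26 (adjusted p = 0.094), which did not pass. For Fas the difference between doses was 0.01 (-0.18 to 0.20) at 12 h and -0.09 (-0.28 to 0.09) at 24 h. For Bax it was 0.00 (-0.22 to 0.22) and -0.03 (-0.25 to 0.19), and for Eda2r it was -0.19 (-0.60 to 0.23) and -0.18 (-0.60 to 0.24). The change over time was not called different between the doses for any of the 7 genes, with 0.52% of all genes called. Aen and Phlda3 had an unadjusted p under 0.05 there, again without a counted share of all genes.

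**Figure D4:**
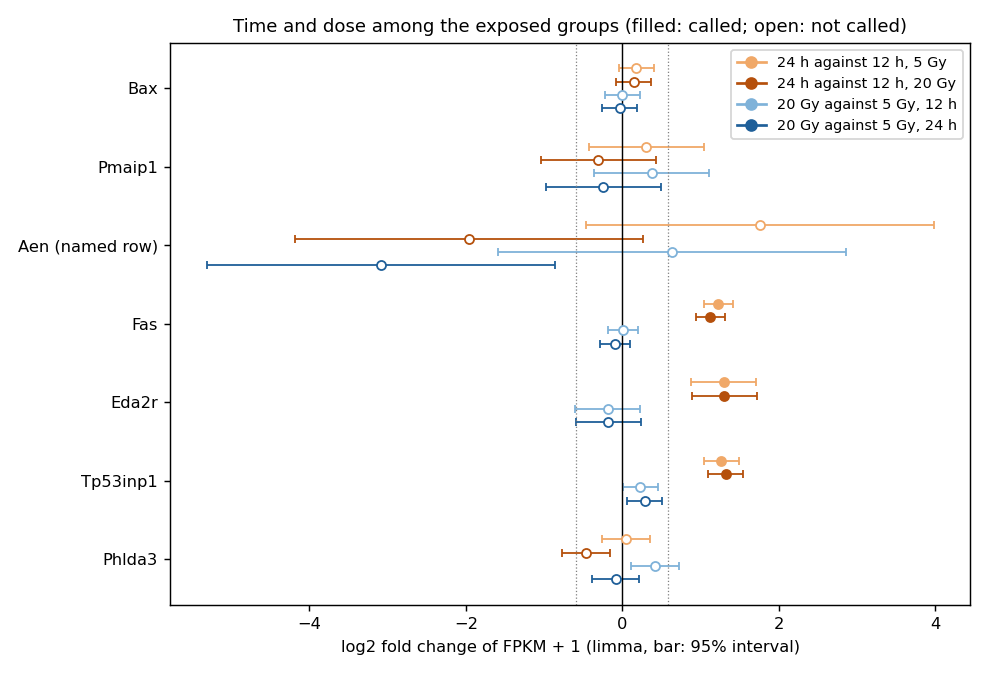
Log2 difference of FPKM + 1 between 24 h and 12 h within a dose and between 20 Gy and 5 Gy within a time (horizontal axis), with bars for the 95% interval, filled points where the call was made and open points where it was not. The filled points are those of Fas, Eda2r and Tp53inp1 between the times, from 1.13 to 1.33, and no point between the doses is filled.

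The genes whose log2(FPKM + 1) followed each of these genes most closely over the 15 libraries were picked out of 14839 genes by Pearson's r, as a description. The libraries share groups, times in culture and controls. For Fas these were Clk1 (r = 0.992) and Rad52 (r = 0.990), for Eda2r Psrc1 (r = 0.979) and Fas (r = 0.972), and for Tp53inp1 Clk1 (r = 0.986) and Fryl (r = 0.984). For Bax they were RGD1359108 (r = 0.971) and Esrra (r = 0.969), and for Phlda3 Mmp2 and Tmem43 (r = 0.975 for both). For Pmaip1 they were Flt1 (r = 0.898) and Ndst3 (r = 0.890), and for the named Aen row Mrgbp (r = 0.854) and Nr2c2 (r = 0.848).

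Counted in either direction, genes that pass on the signal of death receptors were not called more often than all genes. A difference from all genes was not tested. Of 16 ligands, adaptors and receptors of this route, 11 were tested. None was called at 12 h after either dose by limma, where 9.94% and 8.54% of all genes were called in either direction. At an unadjusted p under 0.05 there were 4 genes after 5 Gy (Bid, Casp8, Tnfrsf1a and Tradd) and 1 after 20 Gy (Casp8). The share of all genes at that unadjusted threshold was not counted. At 24 h after 5 Gy, 3 were called higher and none lower, where 41.3% of all genes were called in either direction and 20.5% higher. After 20 Gy, 2 were called higher and 1 lower, where 40.3% were called in either direction and 17% higher. Casp8, the initiator protease, rose from a mean of 3.38 FPKM to 9.46 and 9.67 at 24 h, a log2 fold change of 1.26 (limma adjusted p = 1.6e-06) and 1.28 (adjusted p = 1.6e-06). Daxx, a Fas-binding and chromatin protein, had 0.73 and 0.71 at 24 h, but by its named rows alone -0.52 and -0.46. Tnfrsf1a, the main TNF receptor, had 0.64 at 24 h after 5 Gy, which fell under the fold limit without control replicate 1 (0.58). The adaptor Fadd had -0.61 at 24 h after 20 Gy, a call that was lost when each library was rescaled to the same sum (-0.55), after quantile normalization (-0.49) and without control replicate 2 (-0.56) or replicate 1 or 2 of its own group (-0.56 and -0.58). The median log2 fold change of the 11 genes was -0.05 and 0.07 at 12 h and 0.17 and 0.13 at 24 h.

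Of 15 genes of the apoptosome and the executioner step, at 12 h 2 were called higher after 5 Gy and 1 after 20 Gy, beside 4.98% and 4.9% of all genes. At 24 h, 4 were higher and 2 lower after 5 Gy, and 2 higher and 2 lower after 20 Gy. Over all genes, 41.3% and 40.3% were called in either direction, and 20.5% and 17% were called higher. Counted in either direction, the called share was thus near that of all genes after 5 Gy and below it after 20 Gy. A difference from all genes was not tested. Birc3, an inhibitor of apoptosis protein, rose by 2.13 and 2.38 on the log2 scale at 24 h, from a mean of 0.114 FPKM to 3.94 and 4.74. Cycs, which encodes cytochrome c, fell by 1.31 and 1.48 at 24 h. Casp6, an executioner caspase, rose by 1.35 and 1.04 at 24 h, and by its named rows the values were 0.07 and -0.03 and neither was called. Birc2 was called at 12 h after 5 Gy alone (3.18), with a mean of 8.16 FPKM there. It was near 0 in the control group (0.00355) and at 24 h (0.0414 and 0.00885 after 5 Gy and 20 Gy). At 12 h after 20 Gy its mean of 2.82 had an SD of 4.61. The median log2 fold change of the 15 genes was 0.02 and -0.01 at 12 h and 0.05 and 0.01 at 24 h.

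Among the other genes of the BCL2 family, 8 of 12 were tested, and 1 was called at 12 h after each dose, beside 9.94% and 8.54% of all genes, and 4 at 24 h after each dose, beside 41.3% and 40.3%. These counts lie near the share of all genes. The median log2 fold change of the 8 genes was 0.21 and 0.10 at 12 h and -0.46 and -0.15 at 24 h. The BH3-only genes Bmf (1.45 and 1.22) and Bcl2l11 (1.59 and 1.47) rose at 24 h after 5 Gy and 20 Gy, whereas Bok fell by 1.77 and 1.83 and by 1.01 at 12 h after 5 Gy. Bcl2, the founding protective member, was named after its values were seen and fell by 0.91 and 1.02 at 24 h. Bcl2l2 was called at 12 h after 20 Gy alone (2.59), and that call was lost without control replicate 1 (1.96, limma adjusted p = 0.075) or without any 1 of the 3 exposed libraries (2.55 to 2.65, adjusted p = 0.051 to 0.058).

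Of 9 other death-linked p53 targets, 8 were tested, and 3, 4, 4 and 2 were called higher and 1, 1, 3 and 2 lower at 12 h after 5 Gy, 12 h after 20 Gy, 24 h after 5 Gy and 24 h after 20 Gy. Over all genes, 4.98%, 4.9%, 20.5% and 17% were called higher in that order, and 4.96%, 3.64%, 20.8% and 23.3% were called lower. Zmat3, an RNA-binding zinc finger protein, rose in all 4 comparisons, by 1.39, 1.34, 1.61 and 1.01, although with its named rows alone the call held at 24 h after 5 Gy only. Ei24, an endoplasmic reticulum protein, was called higher in all 4 (0.81 to 1.33), but by its named rows alone the 4 values ran from -0.86 to -0.60. Pidd1, the death domain protein of the PIDDosome, was called in 3 of the 4 (0.72, 0.85 and 0.78), and at 12 h after 20 Gy and 24 h after 5 Gy its named rows gave -0.77 and -0.16. Siva1 fell in all 4, by 0.97, 0.86, 1.52 and 1.03, but by its most abundant transcript alone the call held at 24 h after 5 Gy only, and the value at 24 h after 20 Gy was -0.13. Steap3 was called higher at 12 h after 20 Gy alone (0.83), a call lost by its most abundant transcript (0.51). At 24 h Tigar fell by 0.79 and 0.78 after 5 Gy and 20 Gy, calls lost by its named or most abundant transcripts (-0.37 and -0.36 by the latter), and Tp53i11 fell by 0.70 after 5 Gy, a call lost after quantile normalization (-0.54). The median over the 8 genes was 0.23, 0.56, 0.53 and 0.51.

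The 14 targets of p53 feedback, arrest and repair had 7 higher and 1 lower at 12 h after each dose. At 24 h they had 10 higher and none lower after each dose. The shares of all genes called higher and lower are those just given. Mdm2, the ligase that degrades p53, rose by 1.30, 2.00, 3.00 and 2.78 in the same order, and Gdf15, a stress cytokine, by 3.24, 4.18, 4.68 and 5.15. Plk2, a polo-like kinase, rose by 1.58, 2.15, 3.96 and 4.33, Ccng1, cyclin G1, by 1.96, 2.27, 1.44 and 1.82, and Sesn2, a sestrin of the stress response, by 0.97, 1.22, 2.37 and 2.36. Cdkn1a, the p21 inhibitor of cell cycle kinases, was called higher in all 4 (2.36, 3.76, 2.79 and 3.77), but by its named rows alone the call held at 24 h after 20 Gy only, and the value at 12 h after 5 Gy was -0.46. Plk3, another polo-like kinase, was lower at 12 h (-1.02 and -0.68) and higher at 24 h (2.90 and 2.34), and the 12 h call after 20 Gy was lost without any 1 library of that group (-0.69 to -0.67) or without control replicate 2 (-0.67) or 3 (-0.59). Neither 12 h call of Plk3 held by its named rows alone. At 24 h Btg2 rose by 3.22 and 3.50, Ppm1d, a phosphatase that acts on p53, by 1.91 and 2.02, and Gadd45a by 1.76 and 1.11. The Gadd45a call after 20 Gy was lost without control replicate 1 (1.01) or replicate 2 or 3 of its group (1.04 and 0.84). Xpc, a sensor of DNA damage, was called at 12 h after 5 Gy alone (0.68), and not without replicate 3 of that group (0.55) or by its named rows alone. The median over the 14 genes was 0.74, 0.66, 2.14 and 2.18. This list was chosen as known targets, with earlier results of these data known, and is no independent evidence of its direction.

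**Figure D5:**
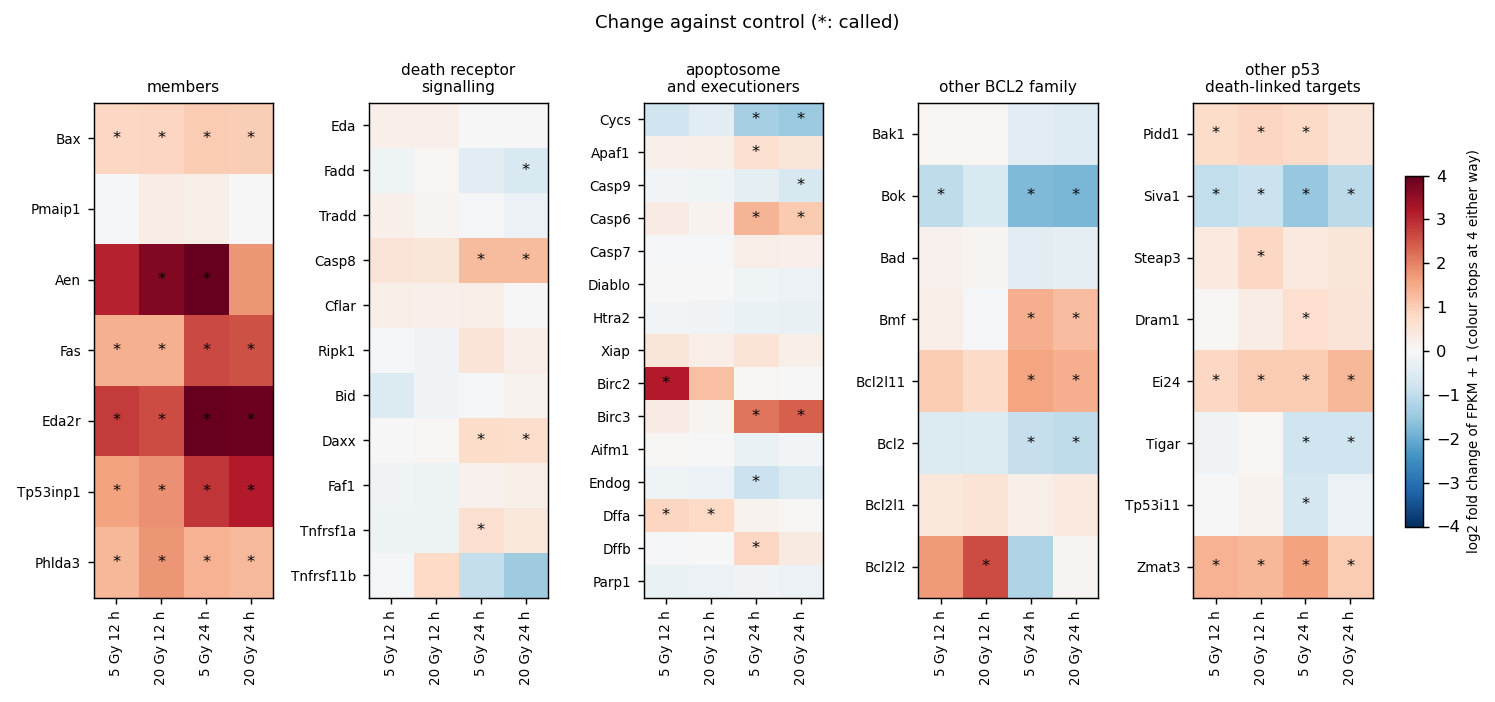
Log2 fold change against the control group (colour, which stops at 4 either way) for the tested genes of 5 lists (rows) in the 4 exposed groups (columns), with an asterisk for each call. The 7 pro-death genes at the left hold 22 asterisks, all higher, while the lists of death receptor signalling and of the BCL2 family hold calls in both directions.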

How the data were processed

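RNA from 15 BMEC cultures (5 groups of 3) had been sequenced. According to the methods and the submitters' notes, reads were trimmed with Trimmomatic, aligned with HISAT2 2.0.13 to Rnor_6.0 and assembled with StringTie, and the authors deposited transcript FPKM, which is scaled by transcript length and library size, so values move with the assignment of reads among overlapping transcripts. kallisto and edgeR are named in the notes as well, and counts were not analysed here. Whether counting used strand is not given in the sources used here, so reads of overlapping transcripts on opposite strands cannot be told apart. The table held 85322 rows, and 4738 unnamed rows of loci with several names were left out.

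FPKM was summed per gene, genes with a mean of at least 0.5 were kept (17895), and limma 3.58.1 (R 4.3.3) was fitted to log2(FPKM + 1) with 1 mean per group over all 15 libraries and a trended prior. The pseudocount understates changes of low genes. Genes were called at a fold of 1.5 or more with p, adjusted by Benjamini-Hochberg over all genes, under 0.05, and the fit was tested on simulated data. Depth was estimated from FPKM steps of low short transcripts, of which 79.5 to 82.1% per library were whole multiples within a tolerance of 0.05.

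The genes named were the 10 set by name, the genes of pathway lists called in all 4 control comparisons plus up to 4 others per list with the largest change among those called, and the 2 genes most like each tested gene with a mean FPKM of at least 1. The 10 genes and the lists were chosen with earlier results of these data known. A gene of the apoptosome list is not reported here and was left out of its counts. Alternatives covered the pseudocount (0.1), the filter, quantile and equal-sum scaling, fits of only the groups compared, an untrended prior, a replicate block, named or top rows, the fold limit and each library left out. Promoters came from RefSeq (GRCr8).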

Additional observations from a re-analysis of the deposited data

Results flagged for a closer look

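Between 24 h and 12 h after exposure the difference itself passed the test for 3 of the 7 genes at each dose, with the same controls. All 3 were higher at 24 h, beside 17.1% of all genes called higher after 5 Gy and 14.1% after 20 Gy. After 5 Gy the log2 difference was 1.23 for Fas, 1.30 for Eda2r and 1.27 for Tp53inp1, and after 20 Gy it was 1.13, 1.31 and 1.33. The Eda2r call after 5 Gy was lost with its named rows alone (1.41, limma adjusted p = 0.096). With the 12 h controls alone, hours since exposure and hours in culture cannot be told apart.

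At 24 h after 20 Gy, transcripts outside the gene sums carried signal above the control level. The unnamed transcript with the span of Aen averaged 44.3 FPKM there, beside 4.34 in the control group and 0.275 at 24 h after 5 Gy. The 3 transcripts that span Aen and Isg20 averaged 95.5 FPKM there, beside 8.22 in the control group.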

How the results depend on the processing

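Bax, Fas and Tp53inp1 kept each call and its direction in all recomputed values, and Pmaip1 was called in none. Values that were not called changed sign in 15 instances for Bax, 4 for Fas, 28 for Pmaip1 and 5 for Tp53inp1. Without 5 Gy, 12 h replicate 2, or without all 12 h libraries (chosen after seeing the data), the named Aen row was called lower after 20 Gy than after 5 Gy at 24 h, so the count of genes differing by dose there went from 0 to 1. Without 20 Gy, 24 h replicate 3, Phlda3 was called in the dose by time interaction (1 gene in place of 0). With each library left out in turn, the genes called against the control group ranged from 5 to 6 in both 12 h groups and in the 24 h group given 20 Gy, and from 3 to 4 between 24 h and 12 h after 20 Gy. Over all genes, the median change at 24 h after 20 Gy was -0.14 as reported and -0.03 after quantile normalization (log2).

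The sources used here do not say whether a replicate number marks a shared animal or culture. Deviations of same-numbered libraries from their group means correlated at -0.177 to 0.232 (median 0.00875, 30 pairs). Libraries of different numbers correlated at -0.209 to 0.203 (median 0.00626, 60 pairs). With so few libraries per group, these values do not settle what a number marks. Under the replicate block the genes called were 5, 6, 6 and 5 of 7 against the control group, 3 and 3 between the times and 0 between the doses.

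The sum of all transcripts of the locus of Aen and Isg20, chosen after seeing the data, was higher at 24 h than at 12 h, by 1.28 after 20 Gy and 1.24 over both doses. It holds Isg20 and the transcripts that span both genes, so the change cannot be given to Aen, and both rows of the Aen span alone were not called. With named rows only, the log2 fold change turned to -0.034 for Casp6 at 24 h after 20 Gy, to -0.46 for Cdkn1a at 12 h after 5 Gy (-0.50 with its top row), to -0.52 and -0.46 for Daxx at 24 h after 5 Gy and 20 Gy, to -0.79, -0.86, -0.60 and -0.75 for Ei24 (12 h, 5 Gy and 20 Gy, then 24 h, 5 Gy and 20 Gy), and to -0.77 and -0.16 for Pidd1 (20 Gy at 12 h and 5 Gy at 24 h). The cause was not tested.

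FPKM without counts, 3 cultures a group and 1 set of controls limit these comparisons, and changes under about 1.5-fold were not called by construction.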

Other observations

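Genes related by family to the pro-death genes were called in both directions. Of 9 relatives, 8 were tested, and 1 was called higher and 1 lower at 12 h after each dose, and 2 higher and 3 lower at 24 h after each dose. Over all genes, 9.94% and 8.54% were called in either direction at 12 h after 5 Gy and 20 Gy, and 41.3% and 40.3% at 24 h. The median log2 fold change after 5 Gy and 20 Gy was 0.01 and -0.05 at 12 h, and -0.21 and -0.52 at 24 h. Phlda2, a relative of Phlda3, rose in all 4 comparisons, by 0.65, 1.15, 1.51 and 1.62, where the call at 12 h after 5 Gy was lost without control replicate 1 (0.54) or replicate 1 or 3 of that group (0.60 for both), and with its named rows alone those at 24 h were lost as well (0.03 after 5 Gy and 0.47 after 20 Gy). Phlda1 fell in all 4, by 0.81, 0.73, 0.95 and 0.85, where the call at 12 h after 20 Gy was lost without replicate 3 of that group (-0.64). Tnfrsf19, a receptor of the TNF receptor superfamily, rose at 24 h by 1.34 after 5 Gy and 1.35 after 20 Gy. Tp53inp2, the relative of Tp53inp1, fell at 24 h by 0.99 and 1.16, and Pmp22, a relative of Perp, by 1.05 and 0.82. With named rows alone the Tp53inp2 call after 5 Gy was lost, and after quantile normalization the Pmp22 call after 20 Gy was lost (-0.58).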
